A study of Drosophila melanogaster with 20 samples.

Results

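The comparison set EcR-RNAi wings against wild-type wings of Drosophila melanogaster at -6 h, counted relative to puparium formation, across all genes. It rests on 4 of the 20 RNA-seq libraries of the series, 2 from EcR-RNAi wings and 2 from wild-type wings, chosen by their labelled tissue, genotype and time. Of 17606 genes in the deposited matrix, 10172 were abundant enough to be tested. EcR-RNAi animals (EcRi below) were yw/yw and carried Vg-GAL4 with UAS-Flp, a Tub>>CD2>>GAL4 cassette, UAS-GFP and the hairpin transgene UAS-EcR-RNAi[104]. In that design vestigial-driven GAL4 turns on the recombinase Flp, which removes the CD2 stop from the cassette, so that cells of the vestigial lineage and their descendants go on making GAL4 and the hairpin. Wild-type animals (WT below) were labelled +/+ at each position and carried neither driver, GFP nor a control hairpin, so the knockdown and the difference between the lines cannot be told apart here. Animals of both genotypes were labelled female and raised at 25 °C, the -6 h larvae were at the wandering stage, and a library pooled at least 60 wings. Whether replicate libraries were dissected from different animals is not given, so p-values measure only the spread between libraries, which may be technical. In pooled tissue, fewer cells of a type and less RNA per cell cannot be told apart.

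Ecdysone is the steroid that times the moults and metamorphosis of insects. It binds EcR, a nuclear receptor that pairs with usp, and the bound pair switches on early regulators such as Eip74EF, Eip75B and br, which in turn set the timing of later ones such as Hr3, Blimp-1 and ftz-f1. Unliganded EcR can also hold target genes off, so its loss may release genes as well as silence them. In the larval wing, an epithelial sheet that becomes the adult wing, the late larval rise of the hormone starts the change from growth to eversion and to the secretion of pupal cuticle and its apical matrix.

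Levels are given as scaled RPM, reads relative to library size after scaling between libraries, and each pair of values is replicate 1, then replicate 2. Differences are log2 fold changes of EcRi over WT on log2(scaled RPM + 1) with their standard error (SE), and this scale understates the change of genes at low level. A gene was called, and is said below to have risen or fallen, at a Benjamini-Hochberg adjusted p under 0.05 over all tested genes and a change of at least 2-fold in limma. The EcRi libraries held 15272443 and 21274902 reads and the WT libraries 17389705 and 19258573. Replicates differed by a median of 0.149 (log2) in EcRi wings and 0.144 in WT wings.

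Markers of the labelled tissue were present in all 4 libraries, but in WT wings the salivary gland markers summed to more. The 7 wing epithelium genes (vg, nub, sd, ap, Ser, bs and wg) summed to 1405 and 1358 in EcRi wings and 1562 and 1563 in WT wings, and none was called. The 9 salivary gland markers, mostly glue genes, summed to 94.5 and 80.9 in EcRi wings, against 12954 and 9204 in WT wings, and 7 of them fell, as described below. None of the 5 myoblast genes was called, but their summed level was 270.2 and 307.3 in EcRi wings, above the 185.6 and 184.6 of WT wings. The blood cell genes, of which 5 were tested, summed to 108.0 and 140.2 in EcRi wings and 65.1 and 59.6 in WT wings, again with no call. Fat body genes summed to 41.7 and 40.5 in EcRi wings and 61.2 and 47.8 in WT wings. No trachea gene of 4 tested and no neuron or glia gene of 5 was called, the second list summing to 50.8 and 46.1 in EcRi wings and 50.9 and 53.1 in WT wings. The RNA roX1, which males make for dosage compensation, stood at 1.33 and 0.74 in EcRi wings, against 0.80 and 34.1 in WT wings. In the other wing libraries roX1 lay between 1.80 and 38.7, although all are labelled female. Without WT replicate 2 106 genes were called in place of 181. The part of these differences in the results below was not tested.

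EcR itself was lower in EcRi wings without being called. Its level was 127.0 and 125.2 in EcRi wings, against 195.1 and 161.3 in WT wings. Whether reads of the hairpin transgene entered the EcR level was not tested. Both EcRi libraries lay below both WT libraries, but the log2 fold change of -0.49 (SE 0.14) missed the threshold at an adjusted p of 0.132. In the authors' deposited DESeq2 results for these groups it was -0.35 at an adjusted p of 0.0296, short of 2-fold. Those fold changes are on another scale, as given below. In wings at -30 h the limma fit gave -0.73 at an adjusted p of 0.0125, also short of 2-fold. In glands at -6 h, where 27% of genes were called and 9.77% were lower in EcRi, the same genotypes differed by -2.57. The difference between the tissues of 2.08 (wing minus gland) passed its test, which called 21.7% of all tested genes, 8.38% of all in the positive direction. usp, the partner of EcR, was not called, at 44.2 and 45.7 in EcRi wings and 47.8 and 43.3 in WT wings.

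Of the 10172 genes, 181 were called, which is 1.78%. There were 125 risen genes (1.23%) and 56 fallen genes (0.551%). Of the risen genes 52 changed at least 4-fold and 9 at least 16-fold, and of the fallen genes 26 and 9. In all 181 the EcRi libraries did not overlap the WT libraries, as was the case for 43.3% of the genes tested. Many risen genes were low in WT wings: 63 of 125 averaged under 1 scaled RPM in WT wings, 47 between 1 and 10, and 15 at least 10. Among the risen genes 114 were protein-coding and 9 noncoding RNAs, and among the fallen 43 and 10. In the authors' deposited table for these groups, 322 genes had an adjusted p under 0.05. With a 2-fold minimum on the authors' own fold changes 245 remained, 148 higher and 97 lower in EcRi. Of these, 102 higher and 47 lower genes were shared with the calls here, and none was called in opposite directions. Fold changes of the authors' table differ in scale from those here. Eip74EF was -0.11 there and -0.89 here, Eip78C -0.02 and -0.77, and w 9.99 and 8.30. The 2-fold minimum therefore does not select alike in both. Among called genes described below, Eip75B (-0.93), Blimp-1 (-0.99) and Dcr-2 (-0.99) fell short of 2-fold in that table. TwdlE and Cpr100A missed its adjusted p (0.0528 and 0.0655, DESeq2).

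**Figure D1:**
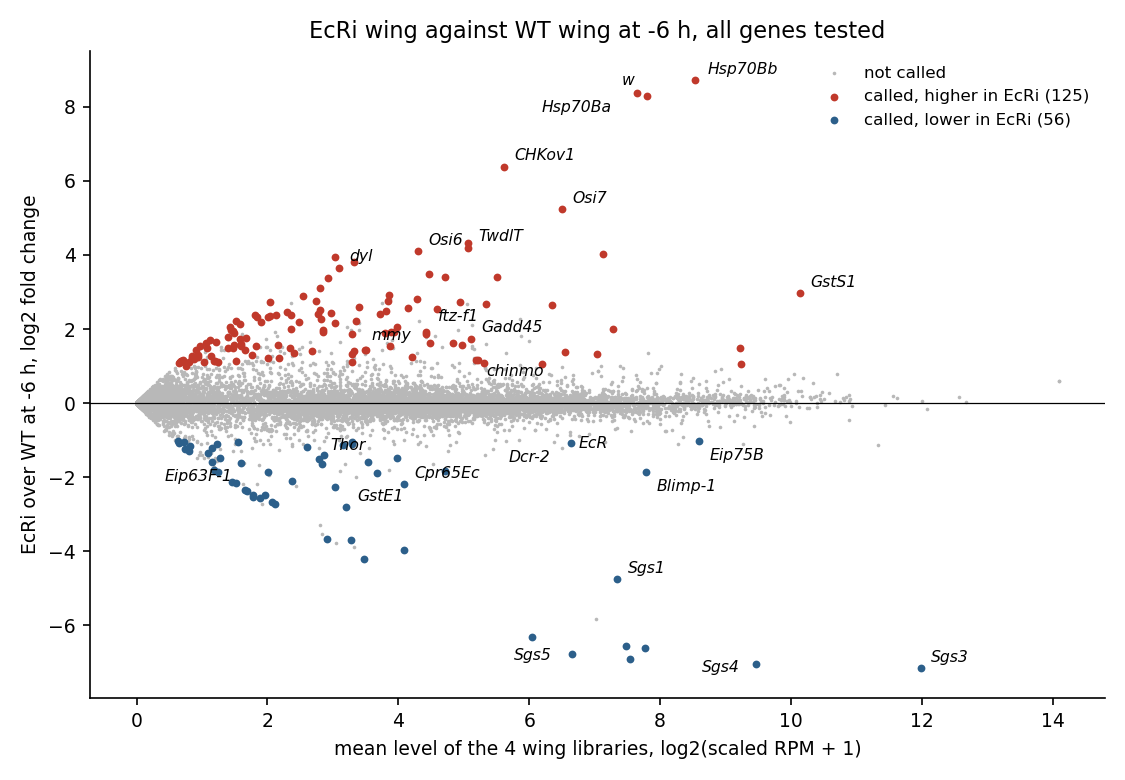
Each point is 1 of the 10172 genes tested, with its mean level over the 4 wing libraries at -6 h on the x axis (log2 of scaled RPM + 1) and its log2 fold change, EcRi over WT, on the y axis. The 125 risen genes (red) include w and 2 Hsp70 copies above a log2 fold change of 8, and the lowest of the 56 fallen genes (blue) are the glue genes near -7.

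The regulators of the ecdysone cascade shifted unevenly. Of 17 tested, 3 fell and 1 rose, against 0.551% and 1.23% of all tested genes. Their median log2 fold change was -0.31, against 0.00 over all genes. Blimp-1, a zinc finger repressor of ftz-f1 in prepupae, had 95.6 and 91.4 in EcRi wings, against 303.4 and 388.6 in WT wings. It fell by 1.87 on the log2 scale (SE 0.37, adjusted p = 0.0143). The EcRi level was still far above that of EcRi wings at -30 h, 0.84 and 0.99. ftz-f1, a nuclear receptor that gives prepupal tissue its competence to respond to the next ecdysone pulse, moved the other way. It had 28.2 and 37.6 in EcRi wings, against 9.16 and 6.62 in WT wings, a rise of 1.93 (SE 0.37, adjusted p = 0.0108). Both EcRi libraries thus stood several-fold above both WT libraries, though far below the 239.5 and 294.4 of WT wings at +6 h. At -30 h the EcRi effect on ftz-f1 was -0.79, and the difference between the 2 times, 2.72 (SE 0.52), passed the test at an adjusted p of 0.0258.

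Eip75B, a nuclear receptor of the early puff class, had 232.7 and 274.6 in EcRi wings, against 516.3 and 513.6 in WT wings. It fell by 1.02 (SE 0.19, adjusted p = 0.00787), and no EcRi library came near a WT one. In glands it fell by 3.50, and the difference between the tissues of 2.48 passed (adjusted p = 1.38e-05). Eip63F-1, a gene for an EF-hand calcium sensor, had 0.81 and 0.65 in EcRi wings, against 4.98 and 5.70 in WT wings, and fell by 1.87 (SE 0.21, adjusted p = 0.000207). Glands hold far more of this transcript: the EcRi wing libraries carried 0.763% and 0.572% of the mean gland level in unscaled RPM, and the WT wing libraries 3.05% and 3.39%. The part of gland RNA in this fall was not tested. Blimp-1 lost the call without any 1 of the 4 libraries (adjusted p from 0.0713 to 0.177) and with a pseudocount of 0.25 (0.203). Eip75B lost it without either WT library or EcRi replicate 1 (0.0678 to 0.0997) and with log2(RPKM + 0.1) (0.0739). ftz-f1 lost it without WT replicate 2 (0.139) or EcRi replicate 2 (0.148). Eip63F-1 lost it only with a pseudocount of 4, by the fold minimum.

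The other 13 regulators did not pass. Eip74EF, an ETS-domain factor, had 70.6 and 78.9 in EcRi wings, against 151.1 and 128.9 in WT wings (-0.89, adjusted p = 0.534). Eip78C, another nuclear receptor, had 33.1 and 31.8 in EcRi wings and 55.2 and 57.2 in WT wings (-0.77, adjusted p = 0.932). At -30 h Eip78C had been called higher in EcRi wings, 9.19 and 8.37 against 0.67 and 1.73 in WT wings. The difference between the 2 effects, -2.97 (SE 0.62), passed at an adjusted p of 0.0405. The zinc finger gene br was abundant in both genotypes, 6161 and 7088 in EcRi wings and 6457 and 6534 in WT wings, with a log2 fold change of 0.02 (SE 0.49). Hr4 stood at 239.5 and 300.2 in EcRi wings and 300.6 and 370.5 in WT wings. The adult specifier Eip93F, at 3.07 and 5.17 in EcRi wings and 1.38 and 1.25 in WT wings, and the transporter gene E23, at 39.6 and 53.0 against 14.7 and 30.6, lay higher without passing.

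**Figure D2:**
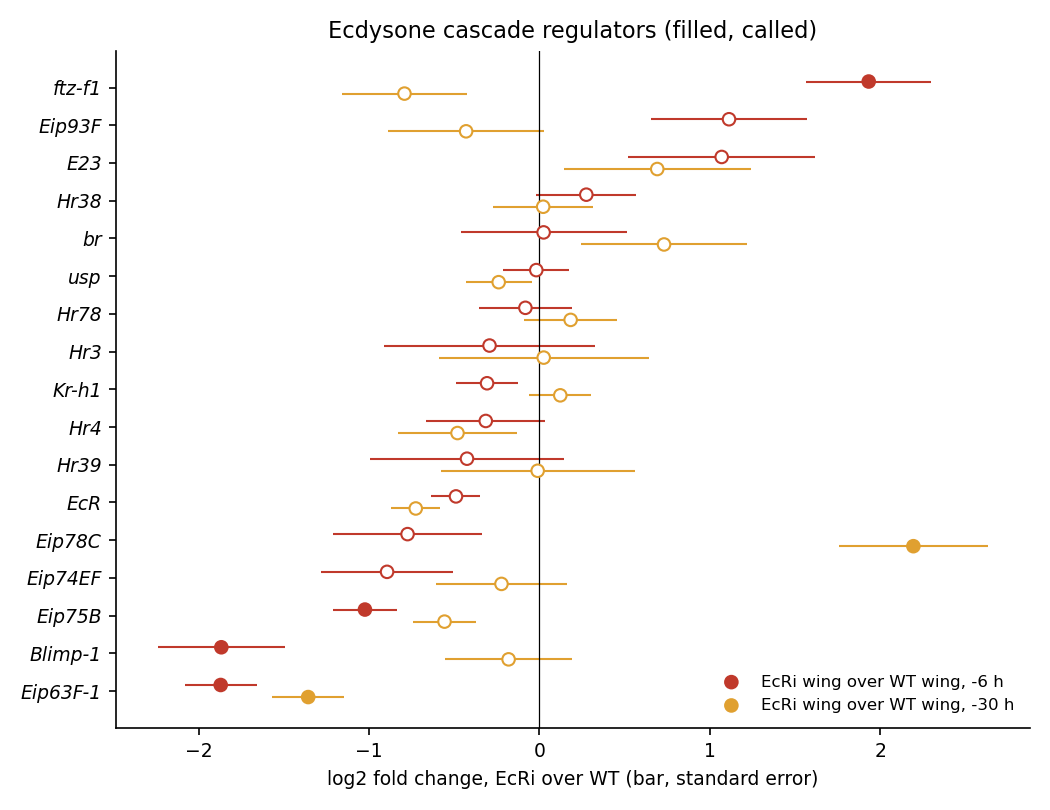
Log2 fold change, EcRi over WT, of the 17 ecdysone cascade regulators in wings at -6 h (red) and -30 h (orange), with the standard error as a bar and filled points for called genes. At -6 h Eip63F-1, Blimp-1 and Eip75B lie left of 0 and ftz-f1 right of it, and Eip78C lies at 2.19 at -30 h but at -0.77 at -6 h.

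Genes known to respond to the hormone downstream did not move as a block. Of 14 tested, 1 rose (Edg78E, described with the cuticle genes), against 1.23% of all tested genes, and the median was 0.09. ImpE2, one of the ecdysone-inducible genes of imaginal discs, was picked after its values were seen. It had 1565 and 1677 in EcRi wings, against 3250.3 and 3837 in WT wings, and its log2 fold change of -1.12 missed the threshold at an adjusted p of 0.0881. At -30 h ImpE2 had been called higher in EcRi, with 89.5 and 73.1 against 11.96 and 24.9 in WT wings, and the difference between the times, -3.29, passed at 0.00239. None of the 8 genes of ecdysone synthesis, uptake and clearance was called, including the importer gene Oatp74D at 71.4 and 72.2 in EcRi wings and 77.2 and 104.7 in WT wings. Among 5 heterochronic genes chinmo alone was called, against 1.78% of all tested genes. chinmo, a BTB zinc finger gene of young larval tissue, had 48.3 and 50.5 in EcRi wings, against 21.3 and 21.3 in WT wings, and rose by 1.18 (SE 0.24, adjusted p = 0.0191). At -30 h it had been lower in EcRi wings, 225.3 and 212.2 against 634.8 and 491.1 in WT wings. The difference between the times of 2.52 (SE 0.35) passed at an adjusted p of 0.00323. The call of chinmo at -6 h was lost without any 1 of the 4 libraries (adjusted p from 0.107 to 0.166), with voom (0.0848) and with log2(RPKM + 0.1) (0.150).

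Several genes of the Osiris and Tweedle families rose. These families encode membrane and structural proteins of cuticle-forming epithelia. Of 9 members tested 6 rose and none fell, against 1.23% and 0.551% of all tested genes, and the median was 2.48. The 4 Osiris genes that rose lie in 1 cluster, between 6209373 (start of Osi2) and 6300738 (end of Osi14) on chromosome arm 3R of dm6. Osi7 (chr3R:6248994-6251683) had 56.6 and 295.1 in EcRi wings, against 2.12 and 2.80 in WT wings, and rose by 5.24 (SE 1.12, adjusted p = 0.0223). Its neighbour Osi6 (chr3R:6234708-6237181) had 8.40 and 65.7 in EcRi wings, against 0.29 and 0.66 in WT wings, and rose by 4.10 (SE 0.89, adjusted p = 0.0249). For both genes the EcRi replicates lay above both WT libraries but differed several-fold from each other. WT wings at +6 h held far more, 21514.5 and 25023 for Osi7 and 3255 and 3951 for Osi6.

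Osi2 and Osi14 had closer replicates. Osi2 stood at 22.2 and 23.4 in EcRi wings, against 4.44 and 2.36 in WT wings, and Osi14 at 13.7 and 29.0 against 3.09 and 2.80. Osi3, Osi9 and Osi15, which WT wings at +6 h express, were not called: Osi9 had 0.04 and 0.14 in EcRi wings and 0.32 and 0 in WT wings. TwdlT had 53.9 and 70.5 in EcRi wings, against 2.22 and 2.62 in WT wings, and rose by 4.20 (SE 0.49, adjusted p = 0.000309). TwdlE had 39.9 and 40.1 in EcRi wings, against 5.91 and 6.29 in WT wings, and rose by 2.53 (SE 0.44, adjusted p = 0.00583). The EcRi effect on TwdlT differed from that at -30 h by 5.32 (adjusted p = 0.00239) and that on Osi7 by 7.85 (adjusted p = 0.0345). At -30 h WT replicate 2 stood high in Osi7, at 70.5 against 3.13 in replicate 1, and in Osi6, at 10.4 against 0.40. The calls of Osi7 and Osi6 were lost without WT replicate 1 (adjusted p = 0.174 and 0.203), WT replicate 2 (0.138 and 0.138) or EcRi replicate 2 (0.329 and 0.382). They were also lost with voom (0.503 and 0.336), with wing libraries alone (0.127 and 0.160) and with the replicate block there (0.0937 and 0.0924), and that of Osi6 with only the 4 compared libraries (0.0794). TwdlT kept its call in every alternative run.

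**Figure D3:**
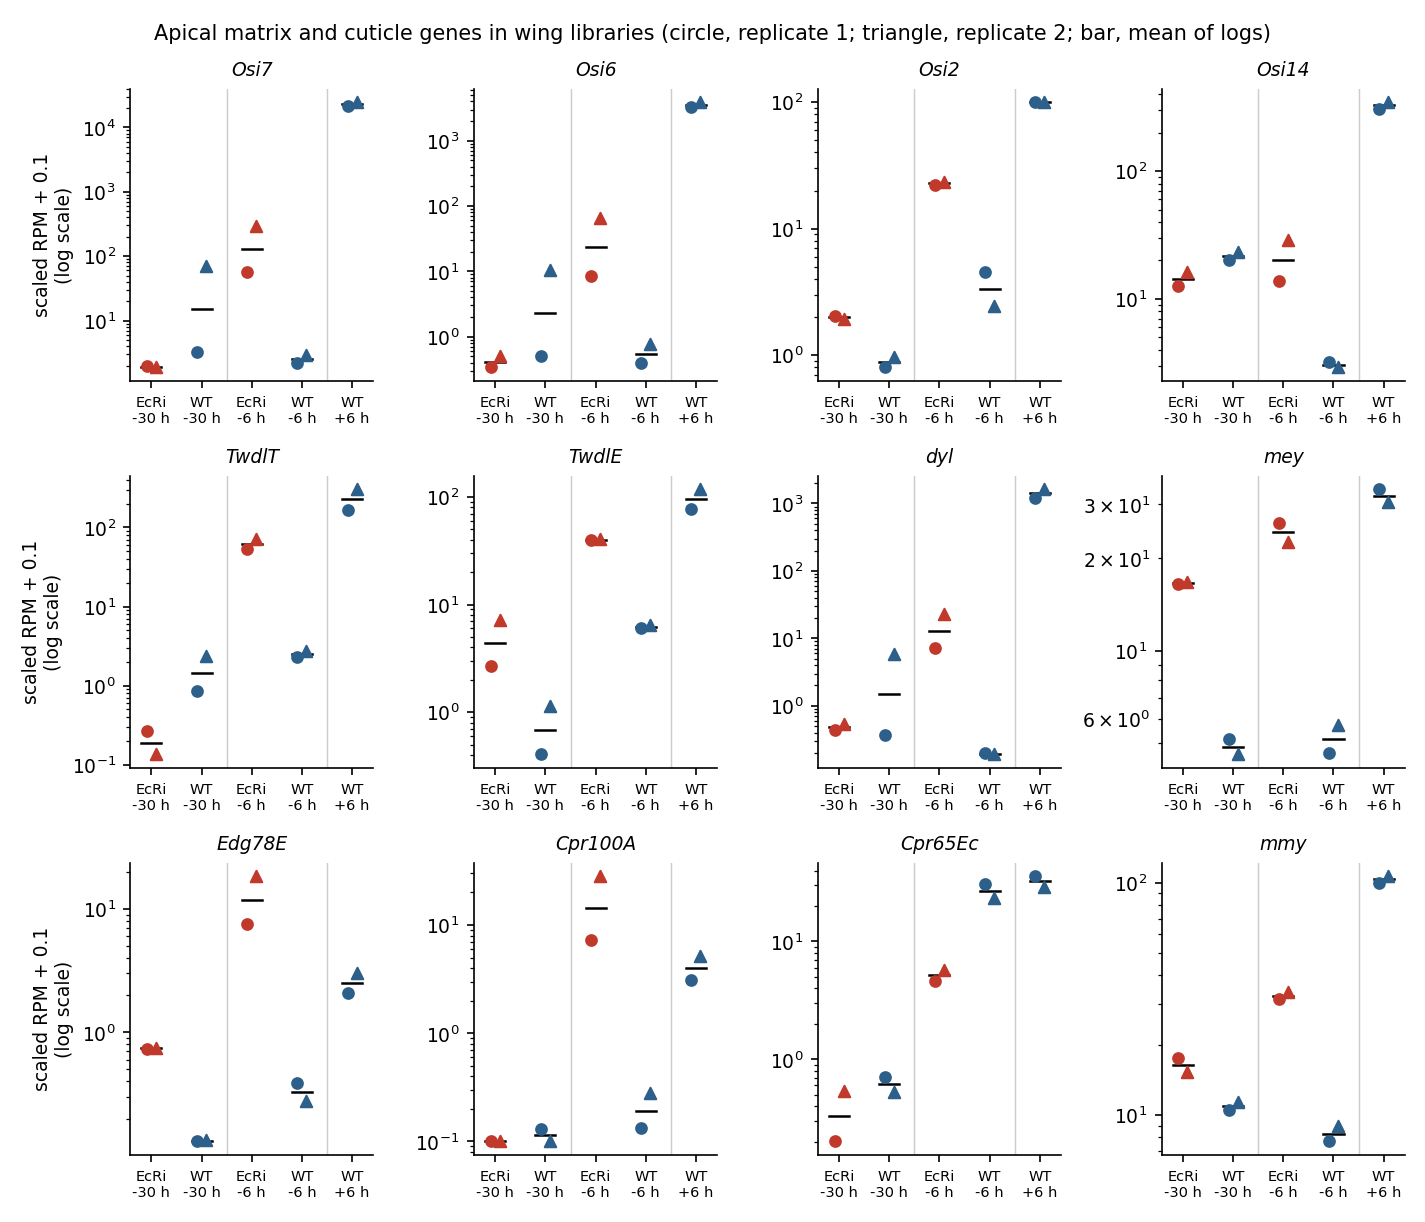
Levels of 12 apical matrix and cuticle genes in each wing library, as scaled RPM + 0.1 on a log axis, by time and genotype (circle, replicate 1; triangle, replicate 2; bar, mean of the logs). At -6 h the EcRi points lie above the WT points in every panel but that of Cpr65Ec, and for Osi7, Osi6 and dyl the WT libraries at +6 h lie far above both.

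Other genes of the apical surface followed in part. Of 13 zona pellucida genes, whose membrane proteins shape the apical matrix, 2 rose, against 1.23% of all tested genes. dyl had 7.03 and 22.8 in EcRi wings, against 0.10 and 0.09 in WT wings, and rose by 3.66 (SE 0.65, adjusted p = 0.0063); WT wings at +6 h had 1223 and 1649. mey had 26.04 and 22.6 in EcRi wings, against 4.53 and 5.61 in WT wings, and rose by 2.06 (SE 0.27, adjusted p = 0.000733). The related dpy was not called, at 1042 and 1383 in EcRi wings and 762.6 and 761.6 in WT wings. Of 15 tested cuticle protein genes 4 rose and 1 fell, against 1.23% and 0.551% of all tested genes. TwdlT is one of the 4 by its function, and Cpr100A, Edg78E and Cpr51A are the others.

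Cpr100A had 7.25 and 28.4 in EcRi wings, against 0.03 and 0.18 in WT wings (log2 fold change 3.82, SE 0.57, adjusted p = 0.00185). Edg78E, an ecdysone-dependent cuticle gene, had 7.40 and 18.5 in EcRi wings, against 0.29 and 0.18 in WT wings (3.37, SE 0.29, adjusted p = 1.34e-05). These 2 and Cpr51A stood in EcRi wings above the level of WT wings at +6 h, at 442%, 529% and 638% of its mean. Cpr65Ec fell: it had 4.51 and 5.65 in EcRi wings, against 30.6 and 23.1 in WT wings (-2.19, SE 0.23, adjusted p = 0.000129). WT wings at -30 h held only 0.61 and 0.43 of Cpr65Ec, and the EcRi effect differed between the times by -1.92 (adjusted p = 0.0123). Cuticle genes of the same list therefore moved in both directions.

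In the 24 tested genes of chitin synthesis, binding and turnover, 2 rose and none fell, with a median of 0.58. Of all tested genes 1.23% rose and 0.551% fell. mmy, the UDP-N-acetylglucosamine pyrophosphorylase that supplies chitin synthesis, had 31.4 and 33.7 in EcRi wings, against 7.59 and 8.83 in WT wings. It rose by 1.87 (SE 0.15, adjusted p = 7.63e-06), and WT wings at +6 h had 100.1 and 107.1. The chitinase gene Cht6 had 701.8 and 1058 in EcRi wings, against 292.9 and 323.2 in WT wings, a rise of 1.48 (SE 0.31, adjusted p = 0.0184). The chitin synthase kkv was not called, at 165.4 and 199.9 in EcRi wings and 160.1 and 173.1 in WT wings. Of 17 genes of planar polarity and wing hairs only f (forked), an actin bundler of bristles and hairs, was called, against 1.78% of all tested genes. It had 10.9 and 14.96 in EcRi wings, against 4.05 and 5.07 in WT wings, and rose by 1.32 (SE 0.29, adjusted p = 0.025). Vajk4, of a small cuticle-associated family, had 11.0 and 13.6 in EcRi wings, against 1.48 and 1.40 in WT wings, and rose by 2.44 (SE 0.43, adjusted p = 0.00662). Calls of TwdlE, dyl, Cht6, f and Vajk4 were each lost without EcRi replicate 2 (adjusted p from 0.0608 to 0.327), WT replicate 1 (0.0602 to 0.261) or WT replicate 2 (0.0512 to 0.103), and that of f also without EcRi replicate 1 (0.0633). The call of dyl was lost with wing libraries alone (0.0748) and the replicate block there (0.0531) too, that of TwdlE with log2(RPKM + 0.1) (0.113), those of f and Vajk4 with voom (0.125 and 0.136), and those of TwdlE, f and Vajk4 with a pseudocount of 0.25 (0.101, 0.226 and 0.0618). With a pseudocount of 4 the call of f was lost by the fold minimum. mmy and mey kept theirs in every alternative run.

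Among the risen genes of highest change and at least 20 scaled RPM were 5 that the annotation leaves without a name beyond a number. CG6118 had 32.2 and 94.2 in EcRi wings, against 1.25 and 2.50 in WT wings (4.32, SE 0.62, adjusted p = 0.00135), and 5921 and 5950 in WT wings at +6 h. CG13731 had 148.0 and 382.2 in EcRi wings, against 14.5 and 13.0 in WT wings (4.02, adjusted p = 0.00185), with only 3.66 and 7.34 in WT wings at +6 h. CG13722, at 21.2 and 58.7 against 1.99 and 2.59, CG15212, at 38.7 and 55.5 against 4.47 and 2.68, and CG32694, at 64.4 and 100.7 against 6.91 and 6.62, rose by 3.47, 3.40 and 3.39. With voom CG6118 and CG13722 lost the call (adjusted p = 0.0890 and 0.0864). In each of the 5 the EcRi replicate 2 was the highest of the 4 libraries. Over all 125 risen genes EcRi replicate 2 was at least 2-fold above replicate 1 for 11 genes and at least 2-fold below it for 2. Without EcRi replicate 2 85 genes were called, and without EcRi replicate 1 136 were.

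The risen genes were set beside the change of WT wings over time. WT wings at +6 h against WT wings at -30 h share no library with the comparison here, and 14.6% of all tested genes were called higher there. All comparisons used the same estimate of spread for a gene, so overlaps of calls are not independent. Of the 125 risen genes 63 were higher there (50.4%, and 4.24% of the 1486 genes called higher there), and 9 were lower. For these 63 the mean EcRi level at -6 h was a median of 25.97% of the mean WT level at +6 h, and 48 of them lay below it. The 56 fallen genes had 14 higher and 10 lower in the same WT comparison, where 10% of all genes were lower. In glands at -6 h, also in other libraries, 33 of the 125 risen genes were called higher in EcRi (26.4%, against 17.2% of all tested), and 32 of the 56 fallen genes lower (57.1%, against 9.77%). Of the 56 fallen genes 16 were within reach of gland RNA, as defined below. They include the glue genes, which were also called lower in EcRi glands. The part of gland RNA in this overlap was not tested.

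The effect of EcR-RNAi at -6 h was set beside that at -30 h, whose 4 wing libraries are different ones. The estimate of spread for a gene was the same at both times, so calls at the 2 times are not independent. Of the 125 risen genes 36 were also called higher in EcRi at -30 h (28.8%, and 41.4% of the 87 genes called there, against 0.855% of all tested genes). Of the 56 fallen genes 21 were also lower at -30 h (37.5%, and 15.4% of 136, against 1.34% of all). The difference between the 2 times was itself called for 85 genes, 0.836% of those tested, 70 of them (0.688%) more positive at -6 h. Of the 125 risen genes 31 passed that test and of the 56 fallen genes 5. That test contains the -6 h libraries by which these genes were called, so these counts are no independent support. The -30 h effects of Osi7 (-2.60), Osi6 (-1.59), Osi14 (-0.57), dyl (-1.08), TwdlT (-1.12) and CG6118 (-1.53) lay below 0 and were not called. Those of Osi2 (0.70) and TwdlE (1.71) lay above 0 without a call, and mey was called higher at both times (1.61 at -30 h). As in Osi7 and Osi6, WT replicate 2 at -30 h stood above replicate 1 in dyl, at 5.79 against 0.27, and in CG6118, at 32.0 against 11.2. EcRi wings at -30 h held 0.34 and 0.44 of dyl, above WT replicate 1, and 5.69 and 6.26 of CG6118, below both WT libraries.

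**Figure D4:**
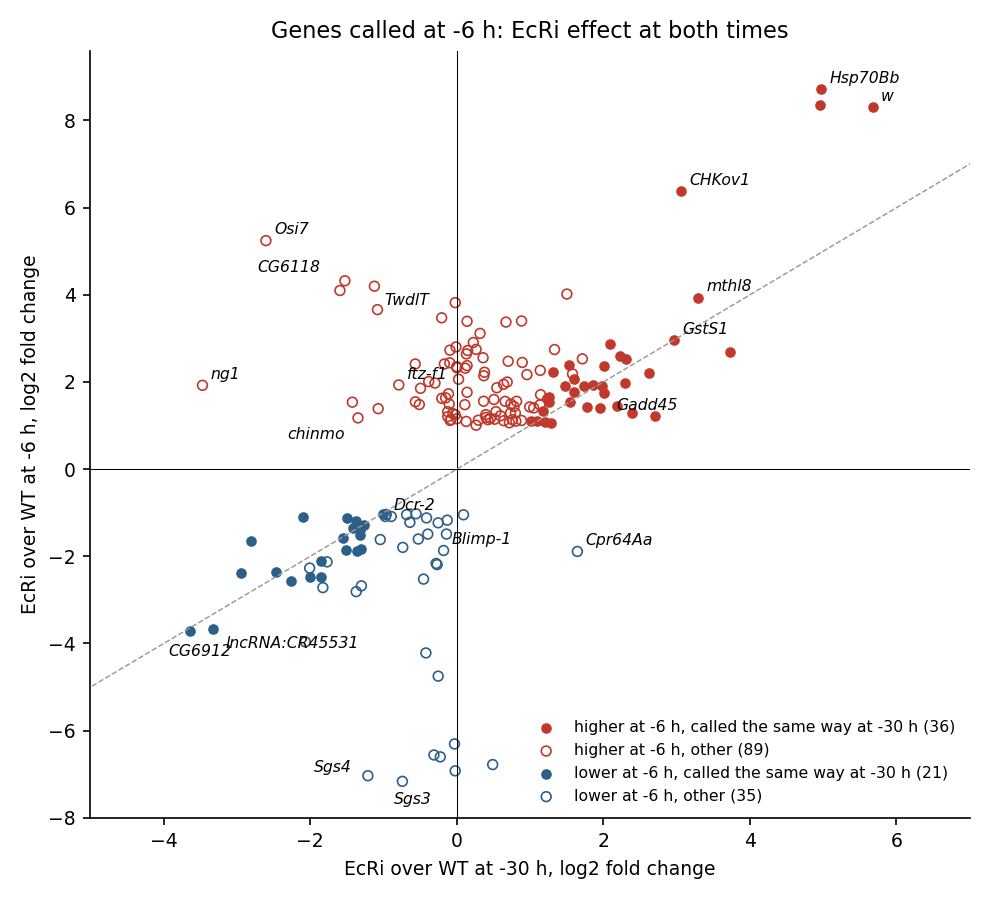
Log2 fold change, EcRi over WT, in wings at -30 h (x axis) and -6 h (y axis) of the 181 genes called at -6 h, filled where the call was the same at -30 h (36 of 125 risen, 21 of 56 fallen); the dashed line marks equal effects. The w, Hsp70 and GstS1 genes were high at both times, while Osi7, ftz-f1 and chinmo lie left of 0 at -30 h.

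A set of genes separated the genotypes in every library of the series. Outside the 4 libraries compared here, 6 were EcRi and 10 WT, from wings and glands. Of the 125 risen genes 18 were higher in all 6 EcRi libraries than in any of the 10 WT libraries, as were 45 of all tested genes (0.442%). Of the 56 fallen genes 2 were lower throughout, lncRNA:CR45531 and lncRNA:CR45805, against 0.187% of all. The eye pigment transporter gene w, a common marker of fly transgenes, had 410.0 and 477.3 in EcRi wings, against 0.42 and 0.39 in WT wings (8.30, SE 0.30, adjusted p = 1.77e-09). Hsp70Ba had 387.3 and 411.1 in EcRi wings, against 0.23 and 0.21 in WT wings, and Hsp70Bb 779.3 and 689.5 against 0.74 and 0.75. They rose by 8.36 and 8.72, and the near-identical copies make the share of each uncertain.

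Hsp70Aa, another copy, was not called, at 16.5 and 5.62 in EcRi wings and 16.2 and 10.7 in WT wings, nor were Hsp68 and Hsp83. Pieces of hsp70 genes, like w, are common parts of fly transgenes. CHKov1, of a choline-kinase-like family, is not among the 18 genes above. It had 96.0 and 94.9 in EcRi wings, against 0.23 and 0.09 in WT wings (6.38, SE 0.21, adjusted p = 8.07e-10). Its neighbour CHKov2, named after its values were seen, had 8.21 and 10.3 in EcRi wings, against 0.51 and 0.27 in WT wings, and also rose, by 2.88. GstS1, a glutathione S-transferase, had 1477 and 2504 in EcRi wings, against 205.4 and 291.7 in WT wings (2.97, SE 0.35, adjusted p = 0.000333). At -30 h its effect was the same, 2.97, and in glands it was 7.58.

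Single members of the stress, growth and defence lists were called: 2 of 18 glutathione transferases, 1 of 12 tissue stress genes, 1 of 14 insulin and TOR genes and 1 of 8 RNA interference genes, against 1.78% of all tested genes. GstE1 fell by 2.81 (SE 0.40, adjusted p = 0.00135), with 0.89 and 1.76 in EcRi wings, against 13.1 and 17.2 in WT wings, and lost the call with voom (0.0645). No other glutathione transferase but GstS1 was called. Gadd45, a stress- and damage-inducible gene, had 56.6 and 48.0 in EcRi wings, against 14.7 and 14.999 in WT wings. It rose by 1.74 (SE 0.23, adjusted p = 0.000659), as it did at -30 h (2.01), and was the only tissue stress gene called. In glands it was lower in EcRi by 2.35, so the tissues differed by 4.09 (adjusted p = 9.56e-07). Thor, the translation inhibitor 4E-BP, fell by 1.60 (SE 0.25, adjusted p = 0.0026), with 6.07 and 3.60 in EcRi wings, against 17.2 and 15.5 in WT wings. The call was lost without EcRi replicate 2 (0.0573) and with voom (0.124). Glands hold far more Thor: the wing libraries carried 0.703% and 0.391% of the gland level in EcRi and 3.13% and 2.75% in WT, and the part of gland RNA was not tested. The other 13 insulin and TOR genes were not called. Dcr-2, which cuts double-stranded RNA for RNA interference, had 70.6 and 54.6 in EcRi wings, against 147.9 and 119.6 in WT wings (-1.09, SE 0.21, adjusted p = 0.0116). The call was lost without WT replicate 1 (0.167), without EcRi replicate 2 (0.183) and with log2(RPKM + 0.1) (0.0739). Its effect at -30 h was -0.97, and the other 7 genes of that machinery were not called.

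Lists of wing patterning, cell division and general cell function held no call. None of 32 wing patterning genes was called, and their changes ranged from -0.49 to 0.45 with a median of -0.13. Neither was any of 20 Notch and proneural genes (-0.51 to 0.45), 13 cytoskeleton genes (-0.18 to 0.22), 36 mitosis genes (-0.39 to 0.52) or 18 autophagy genes (-0.36 to 0.27). The 28 DNA replication genes had a median of -0.28 and a range of -0.68 to 0.15, again with no call. The 13 glycolysis genes had a median of 0.22, and the 23 ribosome biogenesis, 23 secretory pathway, 16 matrix protease and basement membrane, 10 cell death, 20 antimicrobial and 6 small heat shock genes held no call. At 1.78% of genes called, lists of this size would hold under 1 call each at the rate of all genes, so counts of 0 say little about any 1 list.

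The genes that fell most encode glue, the secretion with which salivary glands fix the pupa, and they belong to another tissue. All of Sgs1, Sgs3, Sgs4, Sgs5, Sgs7, Sgs8 and CG7587 fell, by 4.75 to 7.16 on the log2 scale. The calls of Sgs1, Sgs3, Sgs7, Sgs8 and CG7587 were lost without any 1 of the 4 libraries, with adjusted p from 0.0515 to 0.346. With voom those of Sgs1, Sgs5, Sgs7, Sgs8 and CG7587 were lost (0.0716 to 0.655), with wing libraries alone and the replicate block there that of Sgs1 (0.0603 and 0.0917), and with no filter on low values that of CG7587 (0.0511). Sgs4 kept its call in every alternative run. Sgs3 had 53.9 and 54.4 in EcRi wings, against 9310 and 6706 in WT wings. Sgs4 had 9.99 and 9.28 in EcRi wings, against 1615 and 1200 in WT wings. These 7 genes took 0.0161% and 0.0130% of the reads in EcRi wings, against 2.32% and 1.60% in WT wings. The 95% Wilson intervals, which cover counting error only, ran from 0.0155% to 0.0167% in EcRi replicate 1 and from 2.31% to 2.32% in WT replicate 1.

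Of the 9 gland markers these 7 fell, and the transcription factor genes fkh, at 2.11 and 0.82 in EcRi wings and 2.12 and 1.04 in WT wings, and sage, at 1.63 and 1.67 against 3.99 and 2.56, were not called. In unscaled RPM the wing level of a glue gene was 0.178% to 2.47% of that in EcRi glands, with a median of 2.16%, and 1.26% to 3.79% of that in WT glands, with a median of 2.38%. The wing differences in glue thus ran beside the gland differences, and whether RNA of glands reached the wing samples was not tested. Gland reach was judged from a gene's mean gland level at -6 h in EcRi or WT, whichever was higher. A gene was within reach where that level times the highest WT share came to at least 0.5 of the mean level of the higher wing group. There were 864 such genes, 16 of them fallen and 2 risen. Without them 164 genes were called, 124 risen and 40 fallen. Also within reach among the 12 that fell most were CG7606, CG42460 and CG43679, which fell by 6.30, 4.22 and 3.96. CG7606 lost the call without any 1 of the 4 libraries (adjusted p from 0.0907 to 0.140) and with voom (0.559), and CG43679 with voom (0.266) and with wing libraries alone (0.0566). ng1, a glue-type gene of the 3C cluster named after its values were seen, rose: 32.3 and 13.3 in EcRi wings, against 4.53 and 4.95 in WT wings. It was within reach too. In unscaled RPM its wing levels were 0.420% and 0.161% of the gland level in EcRi and 8.32% and 8.84% in WT. Its gland level was thus also higher in EcRi, and the part of gland RNA in this rise was not tested.

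**Figure D5:**
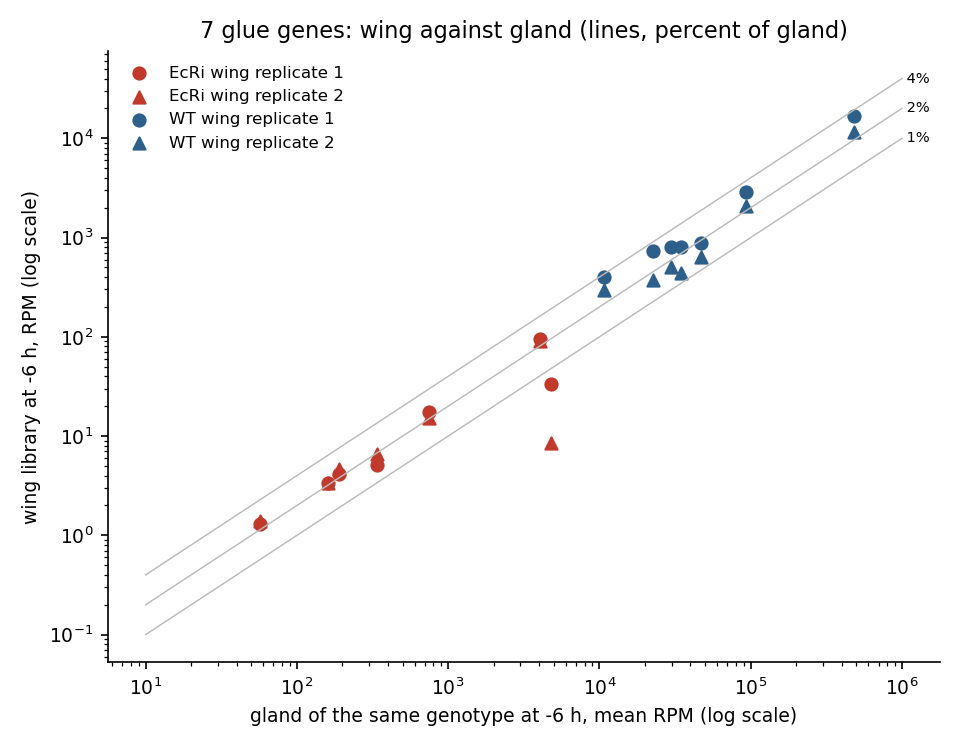
Unscaled RPM of 7 glue genes in each wing library at -6 h (y axis) against the mean of the glands of the same genotype and time (x axis), both on log axes, with lines at 1%, 2% and 4% of the gland level. EcRi points (red) and WT points (blue) lie along the same lines at gland levels orders of magnitude apart, except Sgs1 in EcRi wings at 0.700% and 0.178%.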

How the data were processed

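Total RNA libraries were made with a Tecan kit for Drosophila, per the labels' protocols, with alignment software STAR 2.7.3a, SAMtools 1.9, DESeq2 (version not listed) and build dm6 named in the submitters' processing notes. The authors deposited a matrix of RPKM, reads relative to gene span and library size, and result tables with log2 fold changes and standard errors, raw and adjusted p-values, and a baseMean, the authors' mean of scaled counts (a signal in another unit). The fold changes of the authors' table, WT over EcRi, were turned round. Per the labels nothing is said of strand, so overlapping and antisense genes are uncertain. Whole reads were recovered from the RPKM with gene spans of the Ensembl annotation: 99.9% of the 64380 values worth at most 20 reads came out whole to a tolerance of 0.1. Of 17606 genes, 17379 matched the annotation, 4 had no values and 36 were left out as unresolved. No column was left unassigned.

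RPM were scaled by TMM (30% trim on log ratios, 5% on levels). After a pseudocount of 1, limma 3.58.1 in R 4.3.3 fitted log2 values with 1 mean per group over all 20 libraries, with trend and robust moderation (residual degrees of freedom 10, prior median 3.42). Genes needed 0.558 scaled RPM in 2 libraries, 10 reads at the median depth, and 15 reads in total. Libraries held 14949900 to 22626725 reads, and 3 reads, the limit for a gene at 0, are 0.133 to 0.201 RPM. The median SE was 0.287 for comparisons and 0.407 for differences between times or tissues. A count model was not run on the recovered reads. The fit was tested on simulated data with known changes, placed only in genes above a minimum level in WT wings. All genes shared the same spread there, so the test says nothing of calls at low WT level. Shares were computed in Python 3.11.15 with scipy 1.17.1, on tables read by pandas 2.3.3 and numpy 2.4.6, and plotted by matplotlib 3.10.9.

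The comparison, the 37 gene lists and the naming rule were chosen with earlier results of these data known. Named were EcR, w, all cascade regulators, and from every further list up to 4 called members of largest change that reached 5 scaled RPM. Also named were the 12 genes that rose most and the 12 that fell most, at 20 or more scaled RPM and without library overlap. Other genes given as examples, such as Osi2, Osi14, Cpr51A, dpy, kkv and Hsp70Aa, lie outside this rule. They were picked after their values were seen, and only some are marked. Single-gene results of the alternative runs cover only genes named by the rule. Alternatives changed the scaling, pseudocount, filter, fold minimum, libraries fitted or weights (voom), or added a replicate block; leaving out genes within gland reach, WT gland -30 h replicate 2, and array weights were added after the data were seen.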

Additional observations from a re-analysis of the deposited data

Results flagged for a closer look

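For 20 of the 55 named genes the EcRi effect in wings at -6 h differed by a test from that at -30 h (limma, adjusted p under 0.05 and at least 2-fold). Many of the named genes were chosen by their change at -6 h, which enters this difference. The difference, effect at -6 h minus effect at -30 h on the log2 scale, was 7.85 for Osi7, 5.85 for CG6118, 5.32 for TwdlT and 4.74 for dyl. It was 3.84 for Cpr100A, 3.68 for CG13722, 3.25 for CG32694, 2.704 for Edg78E, 2.52 for CG15212 and 1.32 for mmy. Among regulators it was 2.72 for ftz-f1, 2.52 for chinmo and -2.97 for Eip78C. It was 2.63 for w, 3.75 for Hsp70Bb, 3.41 for Hsp70Ba and 3.33 for CHKov1. Cpr65Ec gave -1.92, Sgs4 -5.82 and Sgs5 -7.27. WT wings held more of w, Hsp70Bb, Hsp70Ba and CHKov1 at -30 h than at -6 h, and EcRi wings held less. For w, WT wings had 7.45 and 3.63 at -30 h, against 0.42 and 0.39 at -6 h. EcRi wings had 308.4 and 329.3 of w at -30 h, against 410.0 and 477.3 at -6 h. In Osi7, dyl and CG6118 WT replicate 2 at -30 h stood well above replicate 1.

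For 13 named genes called in wings and reaching 5 scaled RPM in a gland library at -6 h, the effect differed between wing and gland. The wing change by which they were called also enters this difference. The difference, wing minus gland, was positive for w (1.89), Eip75B (2.48), Osi7 (5.24), Gadd45 (4.09), Hsp70Bb (3.53), Hsp70Ba (2.37), CHKov1 (3.83), CG13731 (4.80), CG32694 (3.73) and CG42460 (4.48). It was negative for Blimp-1 (-1.90), GstS1 (-4.61) and GstE1 (-3.48). Groups of 2 libraries allow no test for a single outlying library.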

How the results depend on the processing

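The 181 calls at -6 h became 386 (251 risen, 135 fallen) in a fit of wing libraries only, 369 with only the 4 compared libraries, 289 without WT gland -30 h replicate 2 and 345 with array weights. Leaving out 1 of the 4 libraries gave 85 to 136 calls: 85 without EcRi replicate 2, 103 without WT replicate 1 and 106 without WT replicate 2. Other alternatives gave 126 to 235. The 85 calls for the difference between times became 333 with wing libraries only and 11 with voom, and 35 to 116 with 1 library left out. The 2207 calls for the difference between tissues became 1264 with voom and 5595 with log2(RPKM + 0.1), where the median of all genes moved to -1.98 from -0.14, and 1792 to 2036 with 1 library left out. With median-of-ratios scaling that median was 0.00 and the split 1046 higher and 1101 lower, in place of 852 and 1355. The 223 calls at -30 h became 123 with a pseudocount of 4 and 518 with wing libraries only, and 94 to 214 with 1 library left out. WT gland -30 h replicate 2 held reads in 6353 genes and replicate 1 in 10997, with a median difference of 0.650 (log2). That pair enters the estimate of spread used for all comparisons. The causes were not tested, beyond fewer samples where libraries were left out.

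The labels pair no libraries, and with 2 pairs the replicate numbers are only names, although replicate differences correlated at r = 0.413 over genes between the 2 groups. With a replicate block on wing libraries the calls were 405 at -6 h, 407 for the difference between times and 538 at -30 h, and with a block on all libraries 2289 for the difference between tissues.

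Of 1032 repeats over 55 named genes, 921 kept direction and call, 99 lost the call, 5 gained it and 7 changed sign, all in genes that were not called. With log2(RPKM + 0.1) br was -0.019. With 1 library left out, br ranged from -0.076 to 0.13, usp from -0.087 to 0.051, Hr78 from -0.22 to 0.060 and Hr3 from -1.20 to 0.62. With 2 libraries a group the median SE was 0.287 (log2), which limits what a change near 2-fold can show.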
